A study of Solanum lycopersicum with 24 samples.

Results

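A set of 3 genes of ethylene perception and signalling were followed through the transcriptome of the tomato *res* mutant: the ethylene receptor genes *ETR4* and *ETR6* and the EIN3-like transcription factor gene *EIL3*. They were taken by gene symbol from the probe sets of the array, each had 1 probe set with that symbol, and they are 3 of 897 genes with a symbol other than a LOC number among 67795 probe sets. They were chosen with earlier results of these data known: *ETR4* and *ETR6* were chosen by the difference between *res* and WT in control roots and by the salt response of *res* roots, and the leaf comparisons of *EIL3* are treated in the same way. Those values are therefore given as a description, with no test.

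Roots and leaflets (called leaves here, from the first fully-expanded leaf) were harvested from plants of *res* and of its background cultivar Moneymaker (WT). The plants were grown in hydroponics and were 6 weeks old when salt was applied. Control tissue came from non-treated plants and salt-stressed tissue from plants after 5 days of salt (200 mM NaCl, less on the first day). The day on which controls were harvested is not clear from the sources. If it was just before the stress, salt and 5 days of growth cannot be told apart. Each of the 8 groups (2 genotypes, 2 organs, 2 treatments) had 3 arrays, and each array carried RNA pooled from 3 plants. The *res* plants represent 1 mutant line, and the values are log2 RMA intensities.

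Ethylene receptors sit in the membrane of the endoplasmic reticulum and hold the pathway off as long as no ethylene is bound. In that state, as worked out in Arabidopsis, they keep the Raf-like kinase CTR1 active, and CTR1 prevents EIN2 from passing the signal on. When ethylene binds, EIN2 is released and EIN3-like (EIL) factors accumulate and switch on ethylene-responsive genes, while the F-box proteins EBF1 and EBF2 mark EIL factors for degradation. In tomato *ETR4* and *ETR6* belong, with *ETR5*, to the receptors of subfamily II, and *ETR1*, *ETR2* and *NR* to subfamily I. The receptors are thus negative regulators, and in tomato fruit receptor proteins are degraded once ethylene has bound, so that transcript and protein levels can differ.

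The arrays reflected their organ labels. All 7 measured photosynthesis markers were higher on every leaf array than on any root array (list mean 8.31 to 9.32 in leaves and 2.35 to 3.49 in roots), and *fer*, a regulator of iron uptake in roots, averaged 7.71 in roots and 1.44 in leaves. Of the 7 measured root markers 6 were higher on average in roots, but only 1 separated all root from all leaf arrays, and their list mean was 4.97 to 5.04 in *res* control roots, 7.46 to 7.74 in WT control roots and 4.26 to 4.97 in leaves. Some arrays were unlike the rest of their group. Replicate 1 of WT control leaves lay more than 2-fold away from its 2 companions at 2494 probe sets and replicate 3 of WT salt-stressed roots at 1399, whereas arrays of the 6 other groups did so at 58 to 239. The companions were above that range too, at 782 and 1054 in WT control leaves and at 518 and 368 in WT salt-stressed roots. Their counts are against a mean that includes the array that stood apart. Several values that rest on replicate 1 of WT control leaves or replicate 3 of WT salt-stressed roots, though not all, are given without that array as well.

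*ETR4* differed widely between the groups. In control roots of *res* its log2 intensity was 6.89, 7.01 and 7.06 on the 3 arrays, and in control roots of WT it was 4.86, 4.65 and 4.73. In salt-stressed roots it read 5.88, 5.94 and 6.23 in WT and 5.88, 6.02 and 5.76 in *res*. The 2 genotypes were far apart before salt and overlapped after it. In leaves *ETR4* stood lower, at 3.66, 2.24 and 2.37 in WT control, 4.41, 4.12 and 4.31 in WT in salt, 2.58, 2.83 and 2.53 in *res* control and 2.85, 3.08 and 3.31 in *res* in salt. All root arrays lay above all leaf arrays, and the high value among WT control leaves is that of the array that stood apart. The 2 other WT control leaf arrays read near the medians of all their probe sets (2.1 and 2.17). In *res* control leaves these medians were 1.93 to 1.97. Levels in control leaves may thus hold little signal of the gene, and no fold against them is given for *ETR4*.

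**Figure D1:**
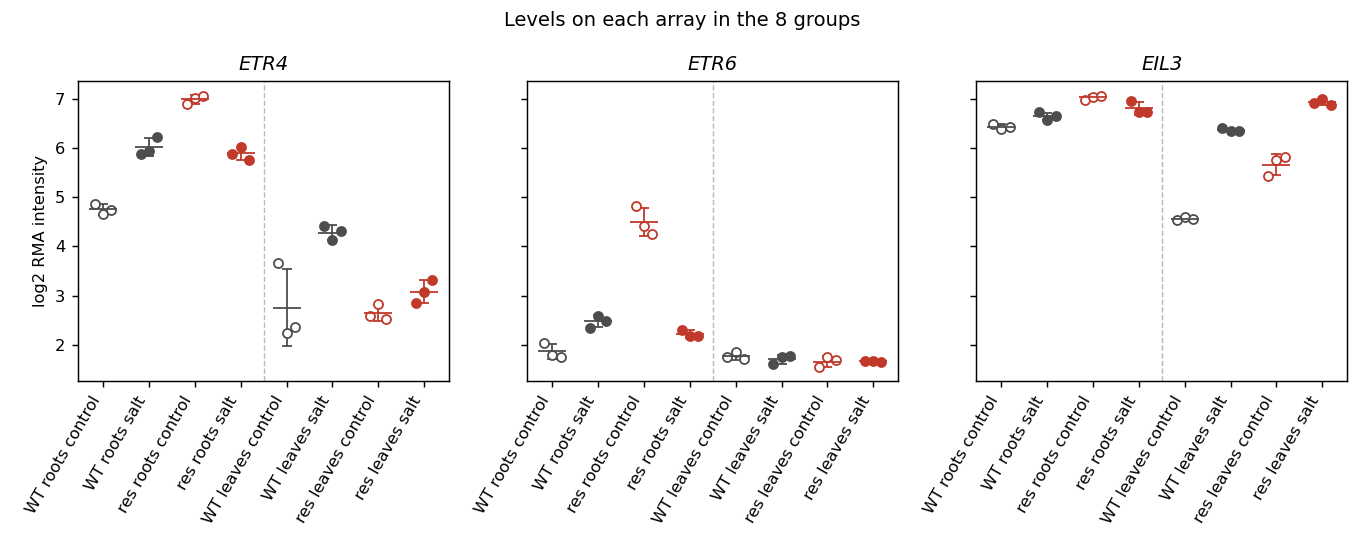
Log2 RMA intensity (y axis) of *ETR4*, *ETR6* and *EIL3* on each array in the 8 groups (x axis), with the group mean and SD of 3 arrays; open points are control, filled points salt, grey WT and red *res*, and the dashed line separates roots from leaves. Both receptor genes are highest in control roots of *res* (means 6.99 and 4.49), and *EIL3* is lowest in WT control leaves (4.56).

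Ordered by level, the groups of *ETR4* ran from *res* control roots (6.99 ± 0.09, mean ± SD, n = 3 arrays in every group) over WT salt roots (6.02 ± 0.19), *res* salt roots (5.89 ± 0.13), WT control roots (4.75 ± 0.11), WT salt leaves (4.28 ± 0.15), *res* salt leaves (3.08 ± 0.23) and WT control leaves (2.75 ± 0.78) to *res* control leaves (2.65 ± 0.16). Neighbours in this order overlapped between the salt-stressed roots of both genotypes and among the last 3 groups, and nowhere else.

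*ETR6* was high in 1 group only. Its control roots of *res* read 4.81, 4.42 and 4.25, against 2.04, 1.8 and 1.76 in WT. In salt the *res* roots read 2.31, 2.18 and 2.18 and the WT roots 2.35, 2.59 and 2.48. On the 12 leaf arrays it never left the range from 1.54 to 1.86. The median of all probe sets of an array lay between 1.84 and 2.17, so the leaf values and those of WT control roots are near the median of all probe sets, and with no detection calls a low level cannot be told from none. The order of the groups was *res* control roots (4.49 ± 0.28), WT salt roots (2.48 ± 0.12), *res* salt roots (2.22 ± 0.08) and WT control roots (1.87 ± 0.15), with no overlap between them, followed by WT control leaves (1.78 ± 0.08), WT salt leaves (1.71 ± 0.09), *res* salt leaves (1.67 ± 0.01) and *res* control leaves (1.66 ± 0.11). From WT control roots downwards each group overlapped with the next.

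*EIL3* had a flat profile in roots and a steep one in leaves. Root values were 6.48, 6.38 and 6.42 in WT control, 6.72, 6.57 and 6.65 in WT in salt, 6.97, 7.04 and 7.06 in *res* control, and 6.95, 6.73 and 6.72 in *res* in salt. In leaves it was at 4.54, 4.6 and 4.55 in WT control and at 5.43, 5.75 and 5.81 in *res* control, and in salt at 6.4, 6.35 and 6.34 in WT and at 6.91, 6.99 and 6.88 in *res*. *res* lay above WT in both treatments in leaves, with no overlap. In salt the leaf arrays of *res* lay within the range of the root arrays (6.38 to 7.06), and of the WT leaf arrays 1 did, the others reading 6.35 and 6.34. The order of the group means was *res* control roots (7.03 ± 0.05), *res* salt leaves (6.93 ± 0.06), *res* salt roots (6.8 ± 0.13), WT salt roots (6.64 ± 0.07), WT control roots (6.43 ± 0.05), WT salt leaves (6.36 ± 0.03), *res* control leaves (5.66 ± 0.21) and WT control leaves (4.56 ± 0.03). The first 3 overlapped with their neighbours, as did WT control roots with WT salt leaves.

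In control roots the receptor genes were far higher in *res*, by 2.24 ± 0.11 (log2 difference ± SE) for *ETR4*, which is 4.72-fold, and by 2.63 ± 0.14 for *ETR6*. No fold is given for *ETR6* here or below, since its lower level is near the median of the array and may hold no signal of the gene. These are differences by which the genes were chosen, and they stand here as the base of what follows. Over all probe sets 5.43% were called in this comparison, that is, had an adjusted p under 0.05 (limma, Benjamini-Hochberg over all probe sets) and at least a 2-fold difference, the thresholds of the study. In whole organs, more cells of a type and more RNA per cell cannot be told apart, and the part in these differences of the lower root marker level of *res* control roots was not tested. *EIL3* was 1.52-fold higher in *res* (0.6 ± 0.09, adjusted p = 0.000323 by limma), with no overlap of the arrays. This passes the test of p, as did 14.1% of all probe sets, but lies under 2-fold.

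With salt, *ETR4* rose in WT roots, while its level in *res* roots was lower. In WT it rose 2.41-fold (log2 difference 1.27 ± 0.11, adjusted p = 8.92e-06 by limma, n = 3 arrays per group), all 3 salt arrays lying above all 3 control arrays, while 2.72% of all probe sets were called in this comparison. Without the salt array that stood apart the rise was 1.16 (adjusted p = 1.1e-05). In *res* its level was 1.1 ± 0.11 lower in salt on the log2 scale, or 2.14-fold, and the difference between the genotypes in the salt response was -2.36 ± 0.16 (3.11% of probe sets called for salt in *res* roots and 3.69% for this interaction). Both of these involve the comparisons that chose the gene, and the rise in WT shares its 3 control arrays with one of them.

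*ETR6* was higher in salt in WT roots by 0.61 ± 0.14 on the log2 scale (adjusted p = 0.0119 by limma), a difference that passes the test of p but not the 2-fold limit and that shares the 3 WT control root arrays with the comparison that chose the gene. Over all probe sets 9.11% passed the test of p alone. It no longer passed when WT control replicate 2 or 3 was left out (adjusted p = 0.0506 and adjusted p = 0.0539, with differences of 0.57 and 0.56). In *res* roots *ETR6* was 2.27 ± 0.14 lower in salt on the log2 scale, and the genotypes differed in salt response by -2.88 ± 0.19. *EIL3* did not pass in roots in response to salt in either genotype, with 0.22 ± 0.09 in WT (adjusted p = 0.171) and -0.22 ± 0.09 in *res* (adjusted p = 0.15), nor did the difference between the 2 responses (-0.44 ± 0.13, adjusted p = 0.063 by limma).

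After 5 days of salt no member differed between *res* and WT roots past the test. The *res* salt root arrays entered the choice of *ETR4* and *ETR6*. For these genes the closeness of the genotypes in salt is therefore not independent of that choice. The difference was -0.13 for *ETR4* (95% confidence interval -0.37 to 0.12, adjusted p = 0.644 by limma), -0.25 for *ETR6* (-0.54 to 0.04, adjusted p = 0.357) and 0.16 for *EIL3* (-0.03 to 0.35, adjusted p = 0.385). The arrays of the genotypes overlapped for *ETR4* and did not for *ETR6* and *EIL3*, although for *EIL3* the nearest arrays of both genotypes read 6.72. In this comparison 2.17% of all probe sets were called and 7.92% passed the test of p. The WT salt roots of *ETR4* lay 0.97 below the *res* control roots, and those of *ETR6* 2.02 below. For both genes the level reached in salt-stressed WT roots thus stayed under that of unstressed *res* roots, without overlap. High values in *res* control roots entered the choice of both genes, so this gap is given as a description.

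**Figure D2:**
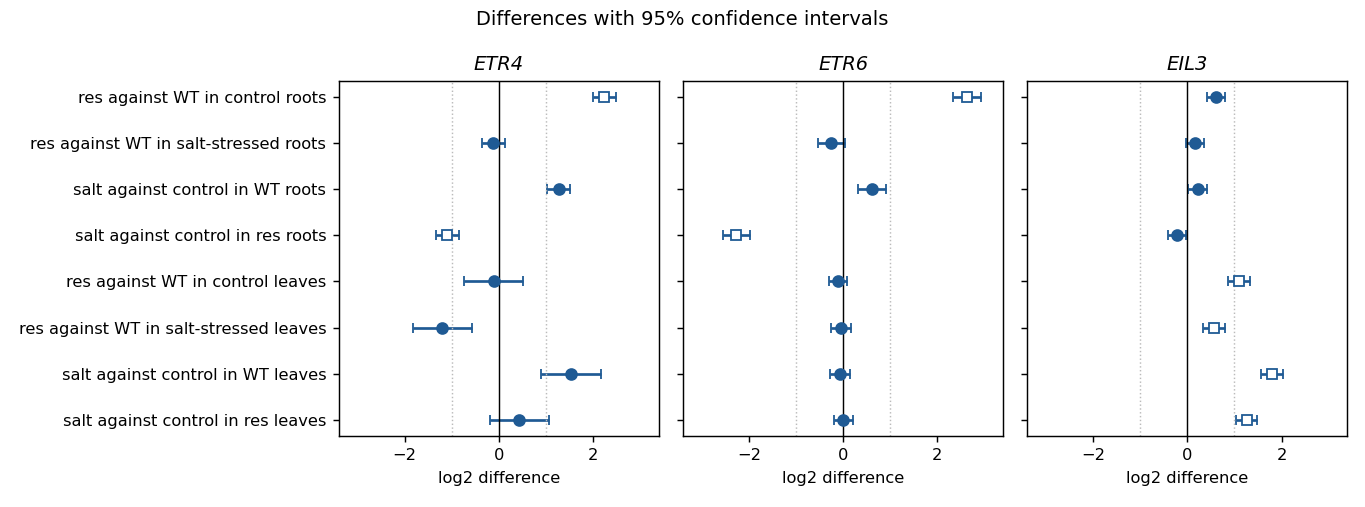
Log2 differences (x axis) of *ETR4*, *ETR6* and *EIL3* in the 8 comparisons within an organ (y axis), with 95% confidence intervals from the fit over the 12 arrays of the organ; open squares are values given as a description and filled circles values that were tested, and dotted lines mark 2-fold. In roots *ETR4* rises in WT in salt (1.27) while it is lower in *res* in salt (-1.1), and in leaves of WT it rises as well (1.53).

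In leaves *ETR4* rose with salt in WT and did not pass the test in *res*. The rise in WT leaves was 1.53 ± 0.29 on the log2 scale (adjusted p = 0.00212 by limma, n = 3 arrays per group), from a control level near the array medians. In *res* leaves the change was 0.43 ± 0.29 (adjusted p = 0.491, 3.4% of probe sets called). The 3 salt arrays of WT lay above all its control arrays, also above the one that stood apart, and without that array the rise was 1.98 ± 0.15 (adjusted p = 9.81e-07). Called in WT leaves were 6.98% of all probe sets. Salt-stressed *res* leaves had 2.3-fold less *ETR4* than those of WT (-1.2 ± 0.29, adjusted p = 0.0123, 4.37% of probe sets called), with no overlap of the arrays. With quantile normalization repeated within leaves this was -0.86 (adjusted p = 0.0834), and without replicate 1 of *res* salt leaves -1.08 (adjusted p = 0.0533), neither past the threshold. At the deposited scaling the median difference of all probe sets between *res* and WT leaves was -0.11 in salt and -0.12 in control.

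The difference between the genotypes in the leaf response of *ETR4* did not pass its own test (-1.09 ± 0.41, adjusted p = 0.171 by limma, 4.12% of probe sets called). Without replicate 1 of WT control leaves it was -1.54 ± 0.2 (adjusted p = 0.000206). In control leaves *ETR4* was at -0.11 ± 0.29 in *res* relative to WT (95% confidence interval -0.74 to 0.52, adjusted p = 0.827, 3.92% of probe sets called), and without that array at 0.34 (adjusted p = 0.12). *ETR6* passed no leaf comparison: its 4 differences lay between -0.11 and 0, their 95% confidence intervals together spanned -0.31 to 0.21, and the difference between genotypes in salt response was 0.07 ± 0.13 (adjusted p = 0.874).

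*EIL3* stood 3.49-fold higher in salt-stressed than in control leaves of WT (1.8 ± 0.11) and 2.4-fold higher in *res* (1.26 ± 0.11, 3.4% of probe sets called there). Between the genotypes it was 2.15-fold higher in *res* in control (1.1 ± 0.11) and 1.48-fold in salt (0.56 ± 0.11), and the salt response of *res* differed from that of WT by -0.54 ± 0.15. No test is attached to these leaf values, for the reason given at the start. The array of WT control leaves that stood apart gave 4.54 for this gene, next to 4.6 and 4.55, and without it the difference between genotypes in control was 1.09 and the salt difference of WT 1.79. With normalization repeated within leaves the difference between genotypes in salt was 0.85, the salt difference of WT 1.53 and the difference between the salt responses -0.29.

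The organs were compared in a fit of all 24 arrays. In control WT *ETR4* was lower in leaves than in roots by a log2 difference of -1.99 ± 0.23 (adjusted p = 2.73e-07 by limma). With single arrays left out this ranged from -2.45 to -1.74. *ETR6* stood at -0.09 ± 0.12 (95% confidence interval -0.33 to 0.15, adjusted p = 0.603). In this comparison 15.2% of all probe sets were called, and it shares the WT control root arrays with the one that chose the receptor genes. *EIL3*, whose leaf comparisons are treated as part of its choice, was 3.64-fold lower in leaves (-1.86 ± 0.09), given as a description. In *res* control, root values are high by the choice of the receptor genes. Leaves were lower by a log2 difference of -4.34 ± 0.23 for *ETR4* and -2.83 ± 0.12 for *ETR6*, and 2.57-fold lower for *EIL3* (-1.36 ± 0.09). All are given as a description, with 17.7% of probe sets called. The salt response of WT did not differ between the organs past the test for *ETR4* (leaf minus root 0.26 ± 0.33, 95% confidence interval -0.43 to 0.95, adjusted p = 0.705), but did so without replicate 1 of WT control leaves (0.71 ± 0.19, adjusted p = 0.00899). For *ETR6* it was lower in leaves (-0.67 ± 0.16, adjusted p = 0.00556 by limma), where 8.04% of all probe sets were called and 16.1% passed the test of p. The WT control root arrays, which entered the choice of *ETR4* and *ETR6*, are part of this comparison too. For *EIL3* the leaf response exceeded that of roots by 1.58 ± 0.13, given as a description.

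For the other receptor genes measured, no difference between the genotypes passed in control roots. Relative to WT, control roots of *res* were at 0.12 ± 0.1 for *ETR1*, -0.04 ± 0.12 for *ETR2* and 0.03 ± 0.14 for *ETR5*, with adjusted p of 0.59, 0.922 and 0.959 by limma. With salt, WT roots were at 0.05 ± 0.1, 0.04 ± 0.12 and -0.12 ± 0.14 for these genes. *ETR5*, of the same subfamily as the members, was 1.46-fold lower in *res* roots in salt (-0.55 ± 0.14, adjusted p = 0.0252 by limma, where 11.4% of all probe sets passed the test of p). In leaves of WT *ETR2* rose 2.22-fold (adjusted p = 0.000186) and *ETR5* 2.03-fold (adjusted p = 0.000676) with salt, and *ETR1* was 1.67-fold higher (adjusted p = 0.000108). The receptor gene *NR* and *ETR7* had no probe set under their symbols and are not analysed here.

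The 12 other measured genes of perception and signalling were 3 receptor genes, the Raf-like kinase genes *CTR3*, *CTR4* and *TCTR2*, *EIN2*, *EIL1*, *EIL2*, *EIL4*, *EBF1* and *EBF2*. By limma 0 of them were called between *res* and WT in control roots, 0 in salt-stressed roots and 0 with salt in WT roots, with 4, 6 and 4 at an unadjusted p under 0.05. Over all probe sets 5.43%, 2.17% and 2.72% were called in these comparisons, and at such shares a count of 0 among 12 genes is near the background. In *res* roots 1 was called, 8.33% of the list against 3.11% of all probe sets. It was *EBF1*, which fell 2.86-fold with salt (-1.52 ± 0.1, adjusted p = 4.58e-07 by limma), and in WT roots it was 1.49-fold lower (-0.57 ± 0.1, adjusted p = 0.00208). The responses differed by -0.94 ± 0.14 (adjusted p = 0.000735, with 6.34% of all probe sets past the test of p). Under the 2-fold limit *EIL4* was 1.78-fold higher in *res* control roots (adjusted p = 4.26e-05) and 1.4-fold higher in salt (adjusted p = 0.00749), and *EBF1* 1.64-fold higher in control (adjusted p = 0.000166). The median log2 difference of the 12 genes in roots lay between -0.26 and 0.03 in the 4 comparisons, and that of all probe sets between -0.03 and -0.01.

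In WT leaves all 12 genes passed the test of p with salt and were higher, by 0.41 to 1.69 on the log2 scale (median 0.92, against -0.07 for all probe sets), where 20.9% of all probe sets passed. With quantile normalization repeated within leaves *CTR3* (adjusted p = 0.228 by limma) and *EBF2* (adjusted p = 0.104) did not pass and *EIL1* was at the threshold (adjusted p = 0.05), and without replicate 1 of WT control leaves *EBF2* did not pass (adjusted p = 0.0592). Of the 12, 6 were also at least 2-fold higher, 50% of the list against 4.56% of all probe sets. The 6 were *ETR2*, *ETR5*, the kinase genes *CTR4* (2.08-fold) and *TCTR2* (2.08-fold), and the EIL genes *EIL2* (2.28-fold) and *EIL4* (3.23-fold, log2 difference 1.69 ± 0.14, adjusted p = 1.82e-06 by limma). In *res* leaves the median was 0.59 and 9 passed the test of p, all higher, where 10.6% of all probe sets passed. Called were 2, *EIL4* (2.91-fold) and *EBF1* (2.04-fold), 16.7% of the list against 3.4% of all probe sets. After that normalization the median in WT was 0.72 and *EIL4* was the 1 gene still called, at 1.52, the 5 others lying between 0.73 and 0.97. *EIN2*, the central membrane component, rose 1.76-fold in WT leaves (adjusted p = 0.000209) and 1.79-fold in *res* leaves (adjusted p = 0.000382). Its responses differed by 0.02 ± 0.16 between the genotypes (95% confidence interval -0.33 to 0.38, adjusted p = 0.973).

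**Figure D3:**
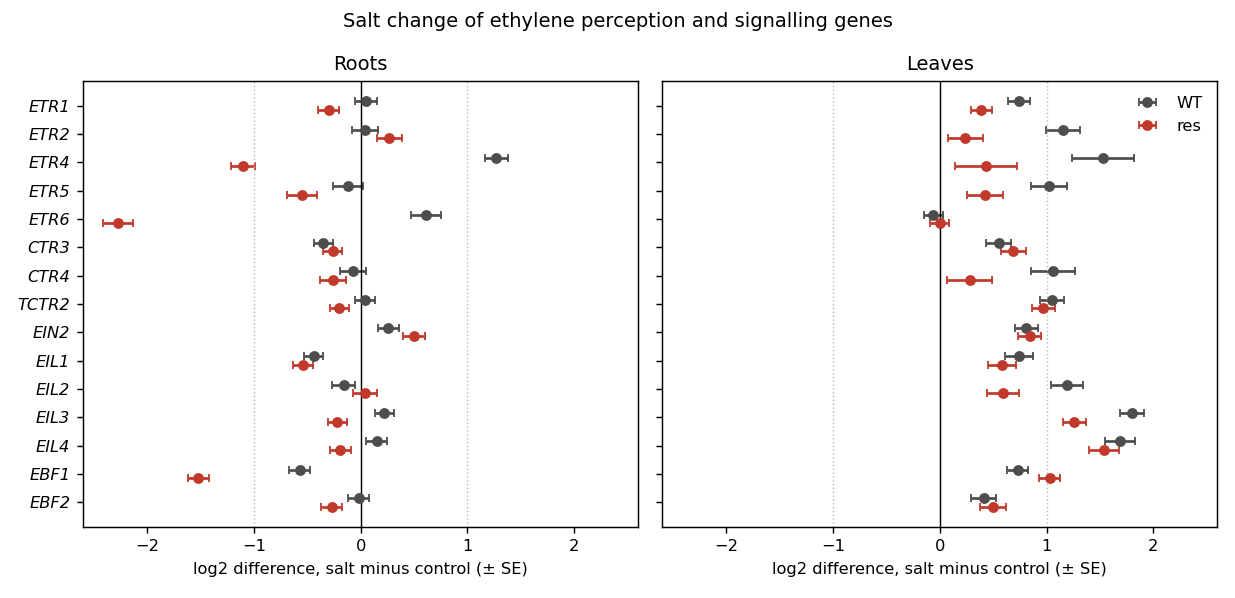
Log2 difference between salt and control (x axis, ± SE) of the 3 members and the 12 other measured genes of ethylene perception and signalling (y axis) in roots (left) and leaves (right), WT in grey and *res* in red; dotted lines mark 2-fold. In roots *ETR4* and *ETR6*, chosen in part by these values, have opposite signs in the 2 genotypes. So do *ETR1*, *TCTR2*, *EIL2*, *EIL3* and *EIL4*, with smaller differences. In leaves of both genotypes all genes but *ETR6* lie to the right of 0.

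Between the genotypes, by limma, 0 of the 12 genes were called in control leaves and 0 in salt-stressed leaves, with 5 each at an unadjusted p under 0.05, where 3.92% and 4.37% of all probe sets were called. Under the 2-fold limit *ETR5* was 1.94-fold higher in *res* control leaves (0.96 ± 0.17, adjusted p = 0.00189 by limma, where 20.5% of all probe sets passed the test of p) and was called with normalization repeated within leaves or without replicate 1 of WT control leaves. Also higher in *res* control leaves were *EIL4* (0.48, adjusted p = 0.0274 by limma) and *EBF1* (0.44, adjusted p = 0.00949). Both passed with that normalization and without that array too. In salt, where 19.1% of all probe sets passed, *EBF1* was 1.67-fold higher in *res* (adjusted p = 0.000274), whereas *EIL2* and *ETR2* were 1.54-fold and 1.51-fold lower (adjusted p = 0.00957 and adjusted p = 0.0216), and the salt response of *ETR2* was smaller in *res* than in WT (-0.91 ± 0.23, adjusted p = 0.0295, where 6.73% of all probe sets passed). With normalization repeated within leaves none of these 3 values of *EIL2* and *ETR2* passed: *EIL2* was at -0.34 (adjusted p = 0.184 by limma) and *ETR2* at -0.31 (adjusted p = 0.277) in salt, and the salt responses of *ETR2* differed by -0.79 (adjusted p = 0.0934). *ETR1* was lower in *res* in salt as well (-0.31, adjusted p = 0.0411 by limma), but did not pass with that normalization (-0.11, adjusted p = 0.525). In control WT 8 of the 12 genes were lower in leaves than in roots at least 2-fold and 0 higher, against 9.5% of all probe sets called lower. In the comparison of the salt responses of WT leaves and roots 8 of the 12 were called, all with the more positive response in leaves, against 4.69% of all probe sets.

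Ethylene is made by ACC synthases (ACS) and ACC oxidases (ACO). Of 9 measured genes of these enzymes, 6 were called between *res* and WT in control roots, 4 higher and 2 lower, against 5.43% of all probe sets, and 6 in the interaction of genotype and salt in roots, 5 lower and 1 higher, against 3.69%. *ACS2*, picked here after its values were seen, had group means of 1.46 in WT control, 2.76 in WT salt, 3.3 in *res* control and 2.58 in *res* salt roots, the same order of groups as for *ETR4* and *ETR6*, for which it was picked. The root means of *ACS3* (4.43, 4.15, 3.9 and 3.63 from highest to lowest) and *ACO1* (2.51, 2.0, 1.9 and 1.48) ran in that order too. Those of the other measured genes of these enzymes did not. In WT control roots *ACS2* and *ACO1* are under the array medians, so no fold is given.

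Genes most like the members were looked for among 756 genes with a symbol and some variation over the 24 arrays. Pearson's r is given as a description, since the arrays fall into groups and so their values are not independent. For *ETR4* the 5 highest were *THT1-3* (0.946), *TPS1* (0.946), *TSI-1* (0.945), *WRKYIId-4* (0.944) and *CDKC* (0.942). For *ETR6* they were *P4* (0.898), *GA2ox3* (0.881), *XTH3* (0.872), *aco5* (0.872) and *3OH-1* (0.871), and for *EIL3* *tdi-65* (0.898), *rpb2* (0.898), *NAM1* (0.887), *THox2* (0.883) and *OAT* (0.875). Within the 12 root arrays, and among 472 genes, the first were *P69B* (0.972), *TPS1* (0.968) and *ACS2* (0.966) for *ETR4*, *NAC1* (0.985), *PLDb2* (0.98) and *AADC1A* (0.975) for *ETR6*, and *ndhA* (0.946), *LTC* (0.945) and *cevi16* (0.943) for *EIL3*. Among themselves the members had r in roots, where *ETR4* and *ETR6* were chosen for a like pattern, of 0.87 for *ETR4* with *ETR6*, 0.91 for *ETR4* with *EIL3* and 0.81 for *ETR6* with *EIL3*. In leaves r was 0.42 for *ETR4* with *EIL3*, and *ETR6*, near the array medians throughout, gave -0.05 with *ETR4* and -0.37 with *EIL3*.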

How the data were processed

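Total RNA pooled from 3 plants per array was hybridized to Tomato Gene 1.1 ST arrays. The authors processed the scans with RMA (background correction, log2 transformation, quantile normalization, 1 value per probe set), and the deposited log2 intensities of 67795 probe sets, with no missing values and no detection calls, were used as given. No software versions are given in the sources used here. Probe sets were named from the gene table of the platform, with symbols updated through RefSeq, and only those with 1 symbol (23194) were used by name. The symbols *GR* and *RAN1* were left out of the lists because the tables do not show which protein they name. Sequences and promoter motifs were not analysed here.

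Differences were estimated by limma 3.58.1 (R 4.3.3, lmFit and eBayes), with the 12 arrays of each organ as 4 groups in a single fit, and with all 24 arrays for organ differences. This moderated test stands in for the ANOVA of the study's methods, which was run as an alternative. The p-values were corrected over the whole array after Benjamini and Hochberg. A gene is called at an adjusted p under 0.05 and at least 2-fold. Errors of differences are SE of the fit, and the number of arrays limits the precision. The fit was tested on simulated data. Members and lists were chosen with earlier results of these data known. Named genes were the members, the signalling genes called in a comparison within an organ, and the 5 genes with the highest Pearson's r with each member (SD of at least 0.3 over the arrays). *ETR1*, *EIN2*, *ACS2*, *ACS3* and *ACO1* were named after their values were seen. Python 3.11.15 was used for tables and plots.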

Additional observations from a re-analysis of the deposited data

Results flagged for a closer look

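The salt response of *ETR6* in WT differed between the organs by a direct test of the difference, with a log2 value of -0.67 ± 0.16 for leaf minus root (adjusted p = 0.00556 by limma, fit of 24 arrays). In roots the 3 salt arrays lay above the 3 control arrays, and in leaves the arrays of both treatments overlapped. Leaf values of this gene (1.54 to 1.86) were near the array medians (1.84 to 2.17), and the part of this in the difference was not tested. The difference also rests on the 3 WT control root arrays, which entered the choice of the gene.

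By the same test 11 of the 12 other signalling genes passed the test of p with a more positive salt response in WT leaves than in WT roots, where 16.1% of all probe sets passed, at 0.69 for *ETR1*, 1.11 for *ETR2*, 1.14 for *ETR5*, 0.89 for *CTR3*, 1.12 for *CTR4*, 1.02 for *TCTR2*, 0.56 for *EIN2*, 1.18 for *EIL1*, 1.35 for *EIL2*, 1.54 for *EIL4* and 1.3 for *EBF1*. *ACS2*, picked after its values were seen and under the array medians in WT control roots, had the opposite sign (-1.13). Between the genotypes the salt response differed by a direct test for *EBF1* in roots (-0.94), for *ACS2* in roots (-2.02) and for *ETR2* in leaves (-0.91), the last not with normalization repeated within leaves (-0.79, adjusted p = 0.0934 by limma).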

How the results depend on the processing

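The fits were repeated with all 24 arrays, with the arrays of the compared groups alone, as an unmoderated ANOVA, with trend and robust variances, after quantile normalization within the organ, without the dimmest probe sets (1 in 3), with a replicate block and without each array in turn. Of 529 values for the members 514 kept their side of the threshold or stayed within the spread between arrays. The lower *ETR4* of salt-stressed *res* leaves did not pass with the ANOVA (-1.2), with within-leaf normalization (-0.86) or without replicate 1 of *res* salt leaves (range over single omissions -1.32 to -1.08). Its leaf interaction passed in the fit of 24 arrays (-1.09) and without replicate 1 of WT control leaves (range -1.54 to -0.83). Its organ difference in WT salt response passed only without that same array (range 0 to 0.71). The difference of *ETR6* in WT roots ranged from 0.55 to 0.7 with arrays left out and did not pass without WT control replicate 2 or 3. The root interaction of *EIL3* passed with the ANOVA (-0.44), with trend and robust variances (-0.44) and without replicate 1 of *res* salt roots (range -0.52 to -0.4). In leaves, within-organ normalization moved *EIL3* to 0.85 between genotypes in salt, 1.53 for salt in WT and -0.29 for the interaction, which ranged from -0.66 to -0.47 with arrays left out. In alternatives chosen after seeing the data, counts of called signalling genes went from 6 to 1 for salt in WT leaves and from 0 to 1 between genotypes in control leaves with within-leaf normalization, the latter also without replicate 1 of WT control leaves (1), and from 0 to 1 for the root interaction without replicate 3 of WT salt roots. The cause of these changes was not tested. The replicate block changed no call (*ETR4* in WT roots 1.27, adjusted p = 6.92e-05, in the blocked fit). Same-numbered arrays deviated with r of -0.1 to 0.1. No pairing by number was seen, although such values over all probe sets cannot exclude one. No member had another probe set to try, and *ETR6* in leaves fell under the filter on dim probe sets. The values carry no background level, so levels near the array medians cannot be told from none.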
